A study of Fundulus heteroclitus with 8 samples.

Results

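Enzymes that oxidise, reduce and conjugate steroids, retinoids and foreign chemicals were followed in the testis of adult male mummichog (Fundulus heteroclitus, an estuarine killifish) after exposure to an androgen. The set was chosen by the text of the probe names on the array and covers cytochrome P450s, the aryl hydrocarbon receptor and its partners, UDP-glucuronosyltransferases, sulfotransferases, aldo-keto reductases, alcohol, aldehyde and retinol dehydrogenases, carbonyl and xylulose reductases, other short-chain dehydrogenases (SDR family), flavin-containing monooxygenase and epoxide hydrolase. It held 72 product names on 98 probes, of 3454 product names on 4586 named probes in all. 2 steroidogenic P450s that the wording also meets, 17A1 and aromatase, were left out by the same rule. Testis RNA was measured on 8 one-colour Cy3 arrays, 4 from control males and 4 from males kept for 21 days in water with 5α-dihydrotestosterone (DHT) at 50 µg/L, called DHT50. Per the labels these are biological replicates from individual fish, and no strain, population or carrier solvent is named. Males exposed to 5 µg/L were not analysed here. Names on this array are often those of the closest protein in another species, so a mammalian isoform number marks a resemblance and not an established killifish gene.

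Cytochrome P450s are haem enzymes that insert oxygen into small lipophilic molecules, and the resulting hydroxyl groups are handles to which UDP-glucuronosyltransferases and sulfotransferases attach glucuronic acid or sulfate, which makes steroids and drugs water-soluble. Alcohol, aldehyde and retinol dehydrogenases and the aldo-keto reductases move compounds between alcohol, aldehyde or ketone, and acid. Retinoic acid made along this route from retinol is a known signal for germ cell entry into meiosis in the mouse. Liver is the organ best known for high levels of most of these enzymes, and testis is known for a smaller set of them.

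Levels are on a log2 scale on which the 75th percentile of each array's processed signal is 0, so positive levels belong to the brightest part of the spots, and levels of different probes are not set against each other. A probe entered the tests where both of its spots passed the scanner's background flag on 4 or more of 8 arrays. 58 of the 72 names passed on 75 probes, and each name is represented by its brightest tested probe. A change is DHT50 minus control in log2 units ± its standard error, from limma fitted to 5989 tested probes with 4 arrays in each group.

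No member reached an adjusted p under 0.05 by limma with Benjamini-Hochberg adjustment, which was also the share over all tested names (0 of 58 members, against 0% of 3086 names), and the lowest adjusted p of a member was 0.685. Lower in DHT50 at an unadjusted p under 0.05 were 2 members, retinol dehydrogenase 8 and L-xylulose reductase, which is 3.45% of those tested beside 1.62% of all tested names. Higher at that threshold were 0 members, beside 2.66% of all tested names. By direction alone, 41 members had a lower mean in DHT50 and 17 a higher one, with a median change of -0.35, whereas all tested names split into 1540 lower and 1546 higher with a median of 0.00. Without control 1 the members' median was -0.16, with 37 lower and 21 higher, while all tested names split into 1730 lower and 1356 higher with a median of -0.07. In whole testis RNA, fewer cells of a type and less RNA per cell cannot be told apart.

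The arrays differed in brightness and the library from control 1 stood apart for this set. The 75th percentile, on the log2 scale, was 11.21, 9.99, 10.09 and 10.03 on controls 1 to 4 and 10.95, 7.97, 9.13 and 9.50 on DHT50 1 to 4, a 9.44-fold range. Well above background were 70 of the 72 names on control 1, 56 to 59 on the other controls, and 58, 37, 48 and 59 on DHT50 1 to 4. By probe, 94 of the set's 98 were so on control 1 and 74 to 77 on the other controls. Over all 7157 probes the counts were 6204 on control 1 and 5770 to 6227 on the other controls. On DHT50 1 to 4 they were 6093, 4742, 5539 and 6011. Control 1 was the highest of the 8 arrays for 31 of the 58 tested members, 53.4% beside 12.8% of all tested names, and lay over 2 log2 units above every other array for 11, or 19.0% beside 3.53%. A list of liver products (24 names, 18 of them tested) was chosen knowing from earlier results that control 1 is high for liver transcripts. It describes that array and is not a test of it. Most of the list were also high on this array, among them apolipoprotein A-I, fibrinogen chains, complement C3 and serotransferrin. The exceptions were 6 names below the mean of the other controls: apolipoprotein B-100, 4 vitellogenins and liver fatty acid-binding protein. The list's median deviation from each name's own mean was 4.60 on control 1 and -1.59 to 1.22 on the other 7 arrays, 12 of the 18 liver names were highest on control 1, and 10 lay over 2 log2 units above every other array. Serotransferrin, a plasma iron carrier, was at 6.96 on control 1 and at -1.13 to 3.08 elsewhere. The list's median change was -1.93 with all arrays and -0.34 without control 1. Of the markers for the labelled tissue, 1 of 2 germ cell names, DEAD-box protein 4, and 2 of 8 somatic testis names, inhibin alpha and the receptor for follicle stimulating hormone, were well above background on all 8 arrays. The others tested were so on 6 or 7. Of 7 tested haemoglobin names, 5 had a higher mean in DHT50 and 2 a lower one (median 0.48, and 0.28 without control 1). The alpha-D chain, with the smallest p of the 7, had a change of 1.5 ± 0.37 (unadjusted p = 0.00265, adjusted p = 0.685, limma), and 0.83 with normexp. The 2 lower names were the alpha chain, at a mean of 6.89 in controls and 6.78 in DHT50 (-0.11 ± 0.31), and the alpha-A chain (-0.49 ± 0.59). The part of liver or blood transcripts in the members' values was not tested.

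**Figure D1:**
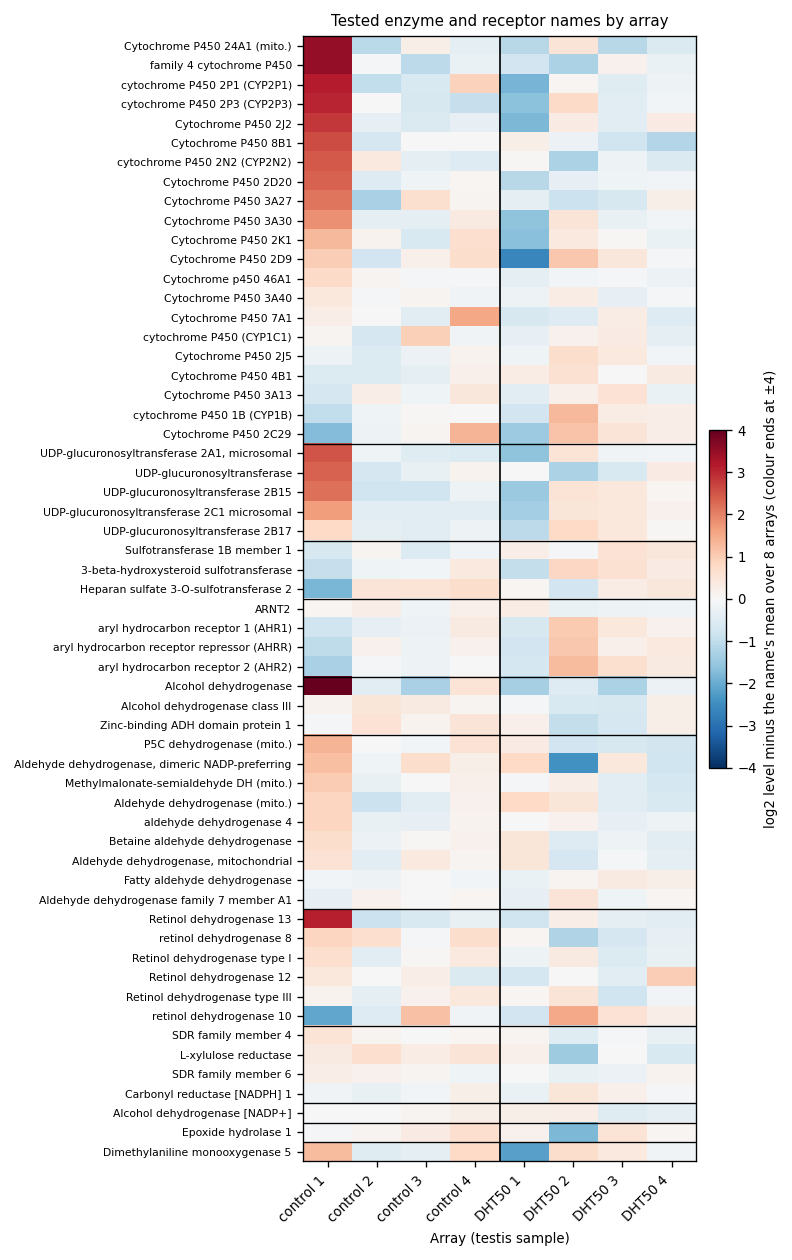
Deviation of each of the 58 tested names (rows, in families separated by lines) from its own mean over the 8 arrays (columns, control left of the line and DHT50 right), in log2 units with colours ending at ±4. Red cells gather in the control 1 column for the P450s, UDP-glucuronosyltransferases, alcohol dehydrogenase and retinol dehydrogenase 13.

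Retinol dehydrogenase 8 had the lowest unadjusted p of the set. It is known in mammals as the photoreceptor enzyme that reduces all-trans-retinal to retinol. Its level was -2.55, -2.73, -3.47 and -2.70 on controls 1 to 4 and -3.33, -4.60, -4.08 and -3.72 on DHT50 1 to 4. Control 1 was the highest array, by little. The groups overlapped through control 3, which lay below DHT50 1, and the probe was not well above background on DHT50 2. The change was -1.07 ± 0.38, or 0.476-fold (unadjusted p = 0.0181, adjusted p = 0.685, limma). It kept its sign and an unadjusted p under 0.05 in 8 of 8 fits that each left out 1 array, at -1.27 to -0.85. Those fits share most of their arrays, so they are not independent support. With normexp background correction the change was -0.51 ± 0.49 (unadjusted p = 0.318, limma), and with array brightness as a covariate -0.69.

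L-xylulose reductase, an SDR enzyme of the glucuronate route that also reduces dicarbonyls, was the other. Its brightest probe read -0.75, -0.43, -0.79 and -0.59 on controls 1 to 4 and -0.91, -2.53, -1.08 and -1.70 on DHT50 1 to 4. All 4 DHT50 arrays lay below all 4 controls, the only member for which this was so (1.72% of members beside 0.940% of all tested names), and no member had all DHT50 arrays above all controls (beside 1.20%). The change was -0.92 ± 0.40, or 0.530-fold (unadjusted p = 0.0447, adjusted p = 0.685, limma). DHT50 1 was separated from the lowest control by little, and DHT50 2 was the lowest array. The unadjusted p was under 0.05 in 2 of 8 fits that each left out 1 array, all with the same sign, and was 0.0612 without control 1. Without DHT50 2 the change was -0.59, with normexp -0.61 and with brightness as a covariate -0.56. The name stands on 3 probes of different contigs, and the others had changes of -0.97 ± 0.56 and -1.32 ± 0.52. The probe with the largest change had levels of -2.26, -2.27, -2.42 and -1.98 in controls and -2.46, -5.08, -3.12 and -3.56 in DHT50, which again did not overlap. DHT50 1 lay just below control 3 there. The probe was not well above background on DHT50 2, so the size of its change is uncertain. In contrast, the third probe overlapped, and was at -1.86 on control 1 against -4.78 to -3.43 on the other 7 arrays.

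SDR family member 4 differed by -0.36 ± 0.30, SDR family member 6 by -0.19 ± 0.29, and carbonyl reductase 1, which reduces quinones and prostaglandins, by 0.17 ± 0.31.

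**Figure D2:**
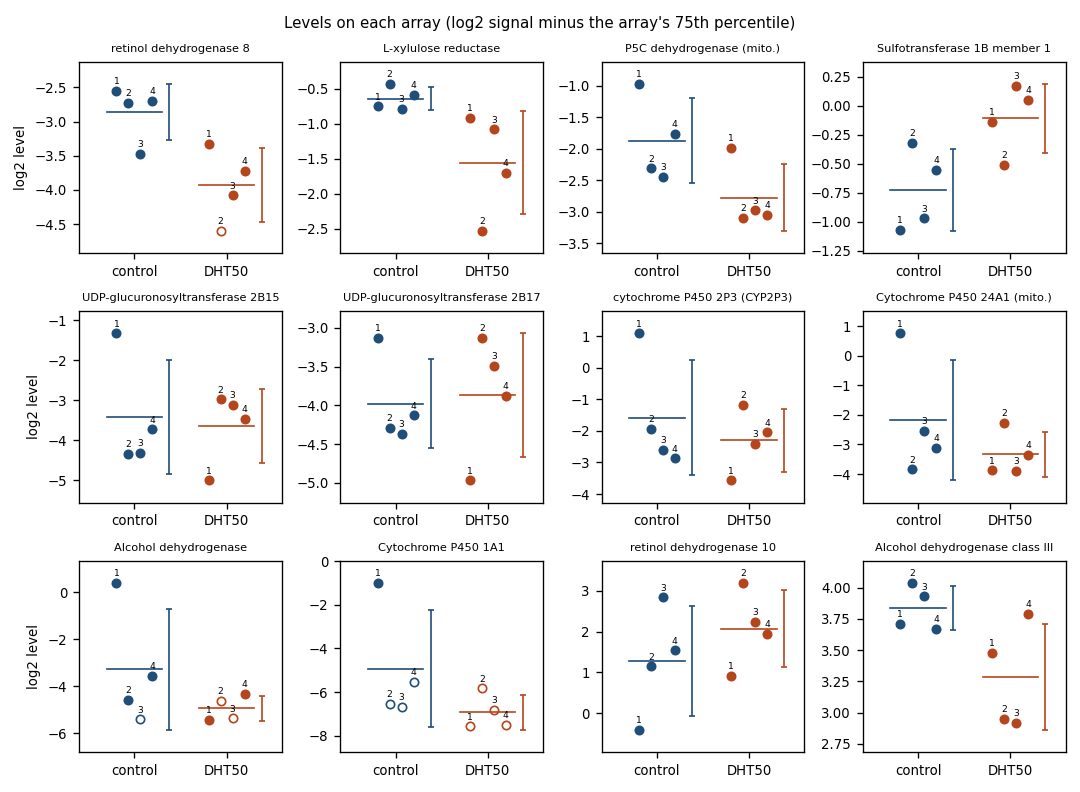
Levels of 12 members on each array (y axes, log2 signal minus the array's 75th percentile; digits are replicate numbers), with the group mean as a line and ±1 SD as the bar beside it (n = 4 arrays a group). Filled points were well above background and open ones were not. L-xylulose reductase is the panel without overlap, and control 1 lies alone at the top for CYP2P3, CYP24A1, alcohol dehydrogenase, UDP-glucuronosyltransferase 2B15 and the brighter probe of CYP1A1.

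Among the other retinol dehydrogenases, the members split between lower and higher means. Retinol dehydrogenase 10, which oxidises retinol for retinoic acid synthesis in vertebrate embryos, was at -0.41, 1.15, 2.84 and 1.54 in controls and 0.91, 3.20, 2.24 and 1.94 in DHT50. Control 1 was lowest and DHT50 2 highest, and the groups overlapped. Its change of 0.79 ± 0.70 was 0.23 without control 1 and -0.11 with brightness as a covariate. Retinol dehydrogenase 13, known in mammals as a mitochondrial retinal reductase, was at -1.25 on control 1 and at -5.23 to -4.11 on the others, so its change of -0.69 ± 0.80 became 0.24 without that array. Type I (-0.35 ± 0.36), type III (-0.15 ± 0.37) and retinol dehydrogenase 12 (-0.07 ± 0.43) had changes smaller than their standard errors. For retinol dehydrogenase 12 the probes differed by array, since one was well above background on control 1 only, at -2.15 against -6.98 to -5.97 elsewhere, while 2 were above background on all 8. Over the 6 retinol dehydrogenases the median was -0.25, with 5 lower and 1 higher, and -0.04 without control 1 or -0.08 without DHT50 3, with 3 each way. It was -0.43 without control 2 and -0.44 without DHT50 2.

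Of 9 retinoid binding and receptor names outside the set, 0 passed an unadjusted p of 0.05, 6 were lower and the median was -0.46 (-0.07 without control 1). Plasma retinol-binding protein II, a liver-made carrier in vertebrates, was at 1.37 on control 1 and -6.41 to -2.97 elsewhere. The cellular retinol-binding protein I was at 0.50, 0.08, 2.02 and -0.70 in controls and 0.29, -3.46, 0.55 and 0.19 in DHT50, so that DHT50 2 alone was low.

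Alcohol dehydrogenase class III, the glutathione-dependent formaldehyde dehydrogenase present in most tissues, was at 3.71, 4.04, 3.93 and 3.67 in controls and 3.48, 2.95, 2.92 and 3.79 in DHT50. DHT50 4 lay among the controls and the other 3 below them. The change was -0.55 ± 0.32 (unadjusted p = 0.118, adjusted p = 0.685, limma), and a further probe gave -0.73 ± 0.48. A zinc-binding alcohol dehydrogenase domain protein differed by -0.60 ± 0.38, with DHT50 2 and DHT50 3 below all controls.

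The name given only as alcohol dehydrogenase had a high value on control 1 alone. It was at 0.40, -4.56, -5.40 and -3.56 in controls and -5.43, -4.62, -5.36 and -4.33 in DHT50. Control 1 exceeded the mean of the other controls by 4.90 log2 units, and the remaining arrays overlapped. The probe was not well above background on control 3, DHT50 2 and DHT50 3, so the sizes of this excess and of the change are uncertain. Its change was -1.65 ± 1.07 with all arrays and -0.43 without control 1. Both of its probes showed the same array alone, the other at 0.93 on control 1 and -5.64 to -3.44 elsewhere. The probes overlap on the same contig, so they are not independent readings.

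Aldehyde dehydrogenases oxidise reactive aldehydes to acids, and 9 of 12 names were tested, of which 6 were lower and 3 higher (median -0.31, -0.17 without control 1, -0.49 without control 2, and -0.52 without DHT50 1). Delta-1-pyrroline-5-carboxylate dehydrogenase, the mitochondrial enzyme that ends proline breakdown, was at -0.97, -2.31, -2.45 and -1.76 in controls and -1.99, -3.10, -2.98 and -3.05 in DHT50. DHT50 2, 3 and 4 lay below every control and DHT50 1 among them. Its change was -0.91 ± 0.43 (unadjusted p = 0.0620, adjusted p = 0.685, limma), -0.61 without control 1, and -0.44 with brightness as a covariate.

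The dimeric NADP-preferring form, known for oxidising fatty and aromatic aldehydes, differed by -0.98 ± 0.67, and by -0.34 without DHT50 2, the only array on which it was not well above background. Methylmalonate-semialdehyde dehydrogenase, of valine breakdown, gave -0.48 ± 0.38 and its dimmer probe 0.20 ± 0.40. Betaine aldehyde dehydrogenase, which makes the osmolyte betaine, had 3 probes with changes of -0.35 ± 0.36, 0.36 ± 0.32 and -0.81 ± 0.54, so that they did not share a direction. The mitochondrial form gave -0.31 ± 0.38, the form listed as its precursor 0.12 ± 0.48, aldehyde dehydrogenase 4 -0.19 ± 0.35, fatty aldehyde dehydrogenase 0.22 ± 0.29 and aldehyde dehydrogenase 7 A1, of lysine breakdown, 0.05 ± 0.32. Retinal dehydrogenase 1, the enzyme that makes retinoic acid from retinal, passed the background flag in just 2 samples, control 1 and DHT50 4, and was not tested.

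Aldo-keto reductases were mostly below the detection filter, with 1 of 3 names tested. The 5-beta-reductase, 3-oxo-5-beta-steroid 4-dehydrogenase, reduces the A ring of testosterone and other steroids in vertebrates. Its brightest probe was at -1.64 on control 1, the only array on which it was well above background, and at -7.04 to -5.36 elsewhere, and its other probes were above background on control 1 and control 4. Aldo-keto reductase 1C13, of a family that includes the mammalian 3-alpha-hydroxysteroid dehydrogenases acting on DHT, was above background on control 1 only (-3.98, against -7.60 to -5.73). The aldehyde reductase named alcohol dehydrogenase [NADP+] differed by -0.17 ± 0.31 on its brightest probe. A further contig carried probes with changes of -1.79 ± 0.83 and -0.36 ± 0.57, and a probe of another contig gave -0.87 ± 0.69. All 3 of these probes were highest on control 1. The first of these was at -0.06 on control 1 and at -5.42 to -3.12 on the other arrays.

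Among 28 P450 names 21 were tested, 16 of them lower and 5 higher, with 0 at an unadjusted p under 0.05 and a median change of -0.72, which was -0.19 without control 1 and -0.33 without DHT50 1. By direction, 16 were lower and 5 higher without control 1, and 15 lower and 6 higher without DHT50 1. Several of the drug- and fatty acid-metabolising CYP2 forms were highest on control 1, but not all of them. CYP2C29 was lowest there, at -6.53 against -6.25 to -3.44 elsewhere, and CYP2J5 was at -4.42 against -4.77 to -3.51. The name given only as family 4 cytochrome P450 was at -0.62 on control 1 and -5.39 to -3.97 elsewhere. That was 15.7-fold over the mean of the other controls. CYP2P3, a killifish CYP2 form, was at 1.1, -1.94, -2.59 and -2.87 in controls and -3.57, -1.17, -2.40 and -2.04 in DHT50. Control 1 stood 3.57 log2 units, or 11.9-fold, above the mean of the other controls, and the remaining arrays overlapped. The change was -0.72 ± 0.86, and 0.18 without control 1.

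CYP2P1 (-1.37 on control 1, -6.35 to -3.58 elsewhere), CYP2N2 (-0.59, -4.31 to -2.65), CYP2J2 (0.24, -4.40 to -2.27) and CYP2D20 (-0.96, -4.45 to -3.27) were also highest on control 1. An untested CYP2J2 probe was lowest there instead, at -7.07 against -6.72 to -3.81, and was well above background on controls 3 and 4 only. CYP2N2 differed by -1.01 ± 0.64 with all arrays and by -0.35 without control 1. CYP2P1 was well above background on only 3 controls and 2 DHT50 arrays. The P450 family's median deviation was 1.30 on control 1 and -0.75 on DHT50 1, the array next to it in brightness. The part of brightness in this was not tested. CYP2D9, named for the mouse testosterone 16-alpha-hydroxylase, was at -3.53, -5.28, -4.30 and -3.80 in controls and -7.11, -3.45, -4.07 and -4.59 in DHT50. DHT50 1 was lowest and not well above background, and the change of -0.58 ± 0.75 was 0.19 without it.

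Of the 4 tested CYP3A forms, which oxidise steroids and drugs, 3 had a lower mean in DHT50 and 1 a higher one. CYP3A30 (-0.74 ± 0.60), CYP3A27 (-0.80 ± 0.65) and CYP3A40 (-0.16 ± 0.30) were highest on control 1, and CYP3A13 gave 0.05 ± 0.38. Without control 1 the changes of CYP3A30, CYP3A27, CYP3A40 and CYP3A13 were -0.25, -0.21, -0.05 and -0.16. CYP3A27 was well above background on 2 arrays of each group, and CYP3A30 and CYP3A40 on 4 controls and 2 DHT50 arrays.

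Among P450s of sterol, bile acid and vitamin D metabolism, CYP24A1, CYP8B1 and CYP46A1 were highest on control 1 and CYP7A1 was not. CYP24A1, which inactivates vitamin D, was at 0.76, -3.84, -2.53 and -3.12 in controls and -3.87, -2.26, -3.88 and -3.34 in DHT50. Control 1 exceeded the other controls by 15.2-fold, and the change was -1.16 ± 0.90, or -0.18 without that array. CYP8B1, of bile acid synthesis, was at -1.44 on control 1 and -5.21 to -3.82 elsewhere. It was well above background on 4 controls but, of the DHT50 arrays, on DHT50 1 alone.

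CYP7A1, the rate-limiting enzyme of bile acid synthesis, did not follow control 1. It was at -4.97, -5.26, -5.67 and -3.68 in controls and -5.87, -5.76, -4.95 and -5.74 in DHT50, with control 4 highest, and was well above background on 4 arrays. Its change was -0.69 ± 0.46 with all arrays and -0.28 without control 4. CYP46A1, known as the brain cholesterol 24-hydroxylase in mammals, gave -0.38 ± 0.31 and was also highest on control 1 (-0.07, against -1.21 to -0.74).

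The P450 with the smallest unadjusted p was CYP4B1, a form that hydroxylates fatty acids and some protoxins in mammals. It was at -5.30, -5.29, -5.15 and -4.54 in controls and -4.45, -4.15, -4.74 and -4.40 in DHT50. DHT50 3 lay below control 4 and the other DHT50 arrays above every control. The change was 0.64 ± 0.32 (unadjusted p = 0.0726, adjusted p = 0.685, limma) and 0.15 with normexp, and the probe was well above background on 2 arrays of each group.

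The aryl hydrocarbon receptors are ligand-activated factors that bind dioxins and PCBs, pair with ARNT, and switch on CYP1 genes, while the repressor AHRR competes with them. AHR2 was at -5.64, -4.38, -4.52 and -4.33 in controls and -5.04, -3.07, -3.69 and -3.98 in DHT50. DHT50 2, 3 and 4 were above every control and DHT50 1 below 3 of them. The change was 0.77 ± 0.49 (unadjusted p = 0.143, adjusted p = 0.685, limma), 0.22 with normexp and 0.08 with array brightness as a covariate.

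Levels of AHR2 were ordered against brightness over nearly all arrays, since control 1 and DHT50 1, the brightest, were lowest and DHT50 2, the dimmest, was highest. AHR1 (0.50 ± 0.43) and AHRR (0.44 ± 0.46) had the same ends to their order, and with brightness as a covariate gave -0.05 and -0.18. A further AHR2 probe was not well above background on any array. ARNT2, the partner protein, differed by -0.18 ± 0.29 on one probe and by 0.13 ± 0.29 on the other. The 3 dimmest arrays were all DHT50 arrays, so brightness and exposure cannot be told apart here. The part of brightness in these changes was not tested.

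**Figure D3:**
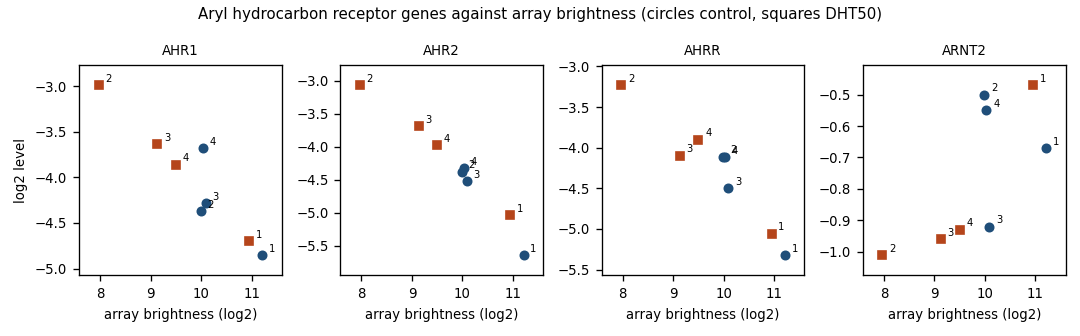
Level of the brightest probe of AHR1, AHR2, AHRR and ARNT2 (y axes, log2 signal minus the array's 75th percentile) against that percentile (x axes, log2) on each of the 8 arrays, with replicate numbers beside the points. For AHR2 the points run from -3.07 on the dimmest array to -5.64 on the brightest, and ARNT2 does not follow this order.

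Their targets were not uniformly detected. CYP1A1, the best known target, was at -0.99 on control 1 and at -7.56 to -5.52 on the other 7 arrays, on none of which it was well above background. Its other probe, also well above background on control 1 only, was not highest there. That probe was at -6.27 on control 1 and -7.98 to -5.05 elsewhere. The dimmest signal that counted as well above background lay between -6.93 and -3.75 on the 8 arrays, so the other arrays give only a bound for CYP1A1. CYP1C1 was at -0.91, -1.69, -0.07 and -1.17 in controls and -1.34, -0.84, -0.68 and -1.41 in DHT50, which overlapped fully (-0.11 ± 0.40). CYP1B gave 0.55 ± 0.46 with all arrays and -0.10 with brightness as a covariate.

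Of 7 names of electron donors, chaperones and xenobiotic sensors outside the set, 2 were lower, 5 higher and 0 passed an unadjusted p of 0.05 (median 0.11). Pregnane X receptor, the nuclear receptor that induces CYP3A genes in mammals, was at -4.80, -5.11, -4.07 and -4.27 in controls and -2.88, -3.73, -3.27 and -4.63 in DHT50. DHT50 4 lay among the controls and the others above them (0.94 ± 0.44, unadjusted p = 0.0595, adjusted p = 0.685, limma; 0.37 with normexp).

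UDP-glucuronosyltransferases of the 2B family conjugate DHT and its metabolites in humans. UDP-glucuronosyltransferase 2B15 was at -1.32, -4.33, -4.31 and -3.72 in controls and -5.00, -2.97, -3.11 and -3.46 in DHT50. Control 1 was highest and DHT50 1 lowest, while DHT50 2, 3 and 4 lay above controls 2, 3 and 4. Its change was -0.21 ± 0.72 with all arrays and 0.49 without control 1.

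UDP-glucuronosyltransferase 2B17 was at -3.13, -4.29, -4.37 and -4.13 in controls and -4.97, -3.13, -3.49 and -3.88 in DHT50. It had the same arrays at both ends, level with DHT50 2 at the top (0.11 ± 0.47, and 0.39 without control 1). Of the remaining names, 2C1 gave -0.15 ± 0.60 and 0.38 without control 1, and 2A1, known for olfactory epithelium in mammals, gave -0.65 ± 0.73 and 0.08. The name given only as UDP-glucuronosyltransferase was at 0.49 on control 1 and -3.14 to -1.54 elsewhere. Its change was -0.78 ± 0.66 (unadjusted p = 0.266, adjusted p = 0.690, limma), and it stayed lower without control 1, at -0.12. The family's median was -0.21 with all arrays, with 4 of 5 lower, and 0.38 without control 1, with 4 of 5 higher. The family's median deviation was 2.21 on control 1, -1.35 on DHT50 1 and -0.45 to 0.56 on the others. Without DHT50 1 the median was 0.24, with 3 of 5 higher, so leaving out either of these arrays turned its sign.

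The tested sulfotransferases all had a higher mean in DHT50 (3 of 4 names tested, median 0.40), and 2 of the 3 did so without control 1, at a median of 0.16, or without DHT50 1, at 0.63. Sulfotransferase 1B member 1, a cytosolic form that conjugates phenols and thyroid hormone in mammals, was at -1.07, -0.32, -0.97 and -0.55 in controls and -0.14, -0.51, 0.17 and 0.05 in DHT50. DHT50 2 lay among the controls and the other 3 above all of them. The change was 0.62 ± 0.32, or 1.54-fold (unadjusted p = 0.0837, adjusted p = 0.685, limma), 0.52 with normexp and 0.63 with brightness as a covariate. 3-beta-hydroxysteroid sulfotransferase, which conjugates steroids, gave 0.40 ± 0.46 and -0.22 with brightness as a covariate. Heparan sulfate 3-O-sulfotransferase 2, a Golgi enzyme of proteoglycan synthesis and not of steroid conjugation, was at -4.78 on control 1 and -3.72 to -2.25 elsewhere (0.01 ± 0.58, and -0.59 without control 1).

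Epoxide hydrolase 1, the microsomal enzyme that opens the epoxides P450s make, was at 1.49, 1.69, 1.92 and 2.25 in controls and 1.74, -0.22, 2.13 and 1.66 in DHT50. DHT50 2 alone was low, and the change of -0.51 ± 0.51 became 0.01 without it. A further probe gave 0.18 ± 0.34. Flavin-containing monooxygenase 5, listed as a dimethylaniline monooxygenase, which oxidises soft nucleophiles, gave -0.61 ± 0.67 and 0.01 without DHT50 1, on which it was at -6.80 and not well above background.

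Glutathione transferases and quinone reductases, the other conjugation route, were taken as a related list of 8 names with 7 tested, of which 6 were lower and 1 higher (median -0.92, and -0.57 without control 1). Microsomal glutathione S-transferase 3 was at -0.03, -0.27, -0.69 and 0.79 in controls and -0.60, -2.02, -1.09 and -1.61 in DHT50. DHT50 1 lay above control 3 and the other DHT50 arrays below all controls (-1.28 ± 0.44, unadjusted p = 0.0155, adjusted p = 0.685, limma; -0.95 with normexp). Glutathione S-transferase Mu 3 gave -0.99 ± 0.50 and glutathione S-transferase A -0.92 ± 0.48. Glutathione S-transferase 1 was at 2.20 on control 1 and -2.96 to -1.84 elsewhere.

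Of 3 related names taken by the words ATP-binding cassette or multidrug resistance, 1 was lower and 2 higher. ABCG8, a sterol transporter subunit, was at -3.76, -4.62, -3.98 and -4.33 in controls and -6.28, -5.92, -5.68 and -5.71 in DHT50. The probe was detected above background in 4 controls but, of the DHT50 samples, on DHT50 1 alone. On DHT50 2, 3 and 4 the dimmest detected signals were -3.75, -4.86 and -5.38, so their values only show that ABCG8 lay under background there, and on DHT50 2 the control levels from -4.62 to -3.76 would also have been under that limit. The fitted change of -1.73 ± 0.32 (unadjusted p = 3.75e-04, adjusted p = 0.685, limma) therefore rests on values under background, and was -0.55 with normexp.

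Of the 14 names that were not tested, 12 were well above background on control 1, against 0 to 4 on any other array. The faintest detected level was also lowest on control 1, at -6.93 against -6.72 to -3.75 elsewhere. Retinal dehydrogenase 1 passed there at -6.47 and did not on controls 2 to 4, at -5.89 to -5.30. By their brightest probe, 8 of the 14 were highest on control 1, while AHR1 beta was lowest there (-6.72) and aldehyde dehydrogenase 8A1 isoform 1 was dark on every array. The 14 include CYP1B1, CYP2F2, CYP2J1, CYP2J6, CYP2P2, CYP3A56 and sulfotransferase 6B1. CYP2P2 was at -3.65 on control 1 and -7.96 to -5.90 elsewhere. Their changes are bounded by background in DHT50 and are not given.

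**Figure D4:**
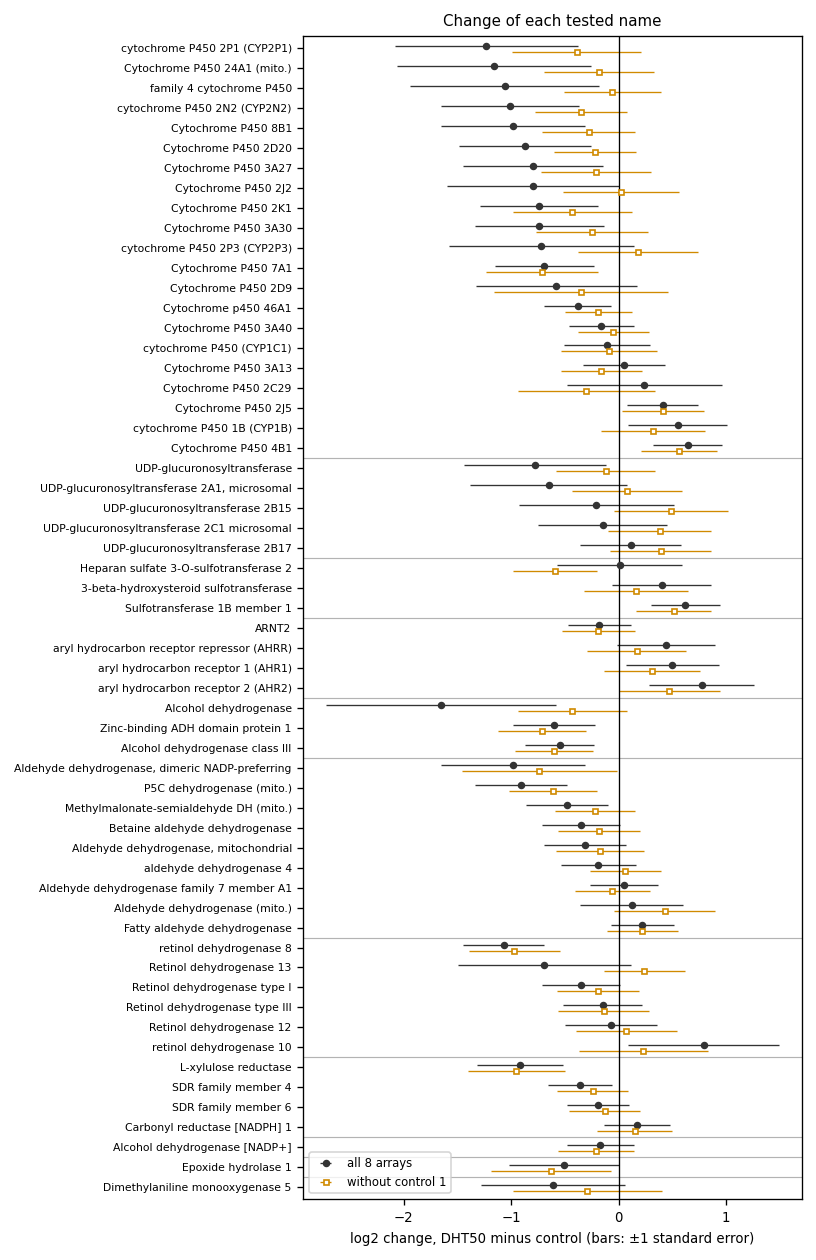
Change of each tested name, DHT50 minus control, in log2 units with ±1 standard error, for all 8 arrays (dots) and without control 1 (squares), in families separated by lines. Leaving out control 1 moves CYP24A1 from -1.16 to -0.18 and alcohol dehydrogenase from -1.65 to -0.43, both far above the other arrays there. Heparan sulfate 3-O-sulfotransferase 2, lowest on control 1, moves from 0.01 to -0.59. Retinol dehydrogenase 8 (-1.07 and -0.97), highest on control 1 by little, and L-xylulose reductase (-0.92 and -0.95) hardly move.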

How the data were processed

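The deposited spot intensity comes from the processed Cy3 column, which Agilent Feature Extraction 10.7.1.1 had background-subtracted and detrended, per the file headers. The deposited median signal and local background intensity were used for the normexp alternative (offset 50), and the other columns used were deposited flags (saturation, outliers, well above background). The authors also deposited log2 values with the same median, 7.47, on every array; they correlated 0.995 to 1.000 with the scanner signal and served as an alternative. Genome builds and the tool behind that table are not given in the sources used here. Arrays carried 14850 spots, 536 of them controls, with 2 spots a probe; 28 of 114512 readings with an outlier flag were left out, and 0 were saturated.

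The processed signal was put on a log2 scale, centred on each array's 75th percentile, averaged per probe and fitted with limma 3.58.1 in R 4.3.3 (lmFit, eBayes) on 5989 tested probes, with adjustment over all of them. All 8 arrays lie on 1 slide. The number of arrays limits precision. Product names of the array design were kept. All members may be named. Those counted as having full statistics were at an unadjusted p under 0.05 or, per family, among the 3 with the smallest p. Their changes and standard errors are printed, and p-values only for some of them. Statistics were also given for up to 3 names of a related list. The members and lists were chosen with earlier results of these data known. The fit was tested on simulated data. Alternatives were other normalizations and background correction, filters on dim probes, array weights, slide row, brightness, a replicate block, a mean over probes, and leaving out each array.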

Additional observations from a re-analysis of the deposited data

Results flagged for a closer look

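Within a group of 4 arrays, 1 array stood far from the others by Dixon's test in 5 of 54 groups of the 27 members with full statistics, where chance gives about 1 in 20. AHR2 was low on control 1 at -5.64, as was heparan sulfate 3-O-sulfotransferase 2 at -4.78, while UDP-glucuronosyltransferase 2A1 was high on control 1 at -0.52. In DHT50, CYP7A1 was high on DHT50 3 at -4.95, where it was not well above background, and delta-1-pyrroline-5-carboxylate dehydrogenase was high on DHT50 1 at -1.99.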

How the results depend on the processing

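In 503 of 531 comparisons (27 members with full statistics, up to 20 alternatives) the sign and the side of an adjusted p of 0.05 were as reported, and 14 of the 27 names never turned sign. Many of these could hardly differ, since filters on dim probes and the replicate block leave a probe's fitted change as it was. A mean over probes leaves a name with 1 tested probe unchanged. Quantile normalization and the deposited log2 table gave nearly the same values, and no member started under an adjusted p of 0.685 (limma). The share is therefore no measure of stability. The count of members lower at an unadjusted p under 0.05, 2 as reported, was 0 with normexp, 1 without a filter on dim probes, 1 with detection required on all 8 arrays, 5 with array weights, 7 with slide row (array position on the slide) as a block, 13 within row 1, 1 within row 2, 1 with brightness as a covariate and 1 to 3 leaving out each array, at 1 without control 1, control 4, DHT50 2 or DHT50 4. The count higher, 0 as reported, was 2 with array weights, 1 within row 1 and 0 to 1 leaving out each array, at 1 without control 4, DHT50 1 or DHT50 2. Row 1 holds control 1 as its only control. There the members' median was -0.74, alcohol dehydrogenase was at -5.53 and alcohol dehydrogenase [NADP+] at 0.02. Leaving out each array gave medians of -0.49 to -0.16. The median was -0.19 with detection required on all 8 arrays (36 names), -0.13 with array weights and -0.05 within row 2. It was -0.30 with normexp, -0.25 with brightness as a covariate and -0.51 with slide row as a block.

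Row 2 holds DHT50 4 as its only DHT50 array, so both within-row fits have a group of 1, which is assumed to vary like the other. Within row 2, alcohol dehydrogenase was at 0.18, SDR family member 6 at 0.09, UDP-glucuronosyltransferase at 0.62, its 2A1 form at 0.28, 2B15 at 0.66 and heparan sulfate 3-O-sulfotransferase 2 at -0.15. Array weights gave 0.03 for 2A1, 0.64 for 2B15, 0.08 for flavin-containing monooxygenase 5 and -0.18 for the heparan enzyme. Brightness as a covariate gave -0.22 for 3-beta-hydroxysteroid sulfotransferase, -0.05 for AHR1, -0.18 for AHRR, -0.11 for retinol dehydrogenase 10 and -0.15 for the heparan enzyme, which was at -0.19 with quantile normalization and with the deposited log2 table. Leaving out each array turned the sign of 19 of the 58 tested members in at least 1 fit. Among the 27 with full statistics it turned 5, with ranges of -0.96 to 0.01 for flavin-containing monooxygenase 5, -0.78 to 0.01 for epoxide hydrolase 1, -0.59 to 0.27 for the heparan enzyme, -0.94 to 0.08 for 2A1 and -0.52 to 0.49 for 2B15. Among the related lists the names at an unadjusted p under 0.05 went from 2 to 1 with normexp. Beyond these constructions the cause was not tested.

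The replicate numbers were not taken to pair the samples: deviations of same-numbered arrays correlated at -0.11 to 0.38, 3 of the 4 pairs were over 0.1 but not every one, and 2 of 4 controls and 3 of 4 DHT50 arrays correlated best with their own number. With the number as a replicate block, 3 members were lower and 1 higher at an unadjusted p under 0.05. The share of all tested names was again not worked out. In that fit 0 members passed the adjusted threshold and the median was -0.35. Dim probes limit the reading most on DHT50 2, where the faintest detected level was -3.75.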
